A study of Mus musculus with 4 samples.

Results

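A group of 9 miRNA names known from mesenchymal, smooth muscle and endothelial cells was followed in exosomes, the small vesicles that cells release, from BV2 cells. The names, as listed, were mmu-miR-199a-3p, mmu-miR-199b-3p, mmu-miR-199a-5p, mmu-miR-214-3p, mmu-miR-143-3p, mmu-miR-145a-5p, mmu-miR-145a-3p, mmu-miR-126a-3p and mmu-miR-126a-5p, given below without the species prefix. They were taken by name from the 603 miRNA names listed for every library, and all 9 were present. MiR-199a-3p and miR-199b-3p had the same reads in every library and were counted once, which left 8 distinct members. BV2 is an immortalized wild-type mouse microglial line. The control group was left at 37 °C for 2 h, while the heatstroke (HS) group spent 2 h at 42 °C followed by 12 h of rewarming at 37 °C, although the study's results section gives a shorter interval before harvest. Small RNA from the exosomes was sequenced in 2 control and 2 HS libraries. Nothing in the labels says that the 2 libraries of a group came from separate cultures, so the p-values measure only the spread between these libraries.

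MiRNAs are cut as 2 arms, 5p and 3p, from a hairpin precursor, and bases 2 to 8 of an arm, the seed, pair with target mRNAs. MiR-199a and miR-214 are made in mesenchymal cells, where Dnm3os, a noncoding transcript antisense to Dnm3, carries Mir199a-2 and Mir214. MiR-143 and miR-145a come from a shared precursor transcript and are known for keeping smooth muscle cells in their contractile state. MiR-126a is hosted by Egfl7, an endothelial gene, and is known for its role in blood vessel integrity. None of these miRNAs is a usual marker of microglia.

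Mature sequences from RefSeq (GRCm38.p6) were matched for 5 of the 9 names. They are shown to make plain which members can be told apart by sequence, and capitals mark the seed.
miR-199a-3p: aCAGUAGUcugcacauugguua
miR-199b-3p: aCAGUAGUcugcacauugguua
miR-199a-5p: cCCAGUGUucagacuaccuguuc
miR-214-3p: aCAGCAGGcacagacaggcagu
miR-126a-3p: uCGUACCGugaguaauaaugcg
The 3p arms of miR-199a and miR-199b are the same sequence. Among the listed names matched to a RefSeq mature sequence, which do not include miR-199b-5p, no other shared their seed or that of miR-199a-5p, miR-214-3p or miR-126a-3p.

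The hairpins of the miR-199 genes and of Mir126a are shown to place these arms, with the mature arms that RefSeq annotates in capitals.
Mir199a-2, chr1:162217814-162217923, plus strand: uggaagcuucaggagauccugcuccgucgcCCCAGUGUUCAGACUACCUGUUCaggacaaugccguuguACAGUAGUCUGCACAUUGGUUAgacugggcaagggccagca
Mir199a-1, chr9:21496495-21496564, minus strand: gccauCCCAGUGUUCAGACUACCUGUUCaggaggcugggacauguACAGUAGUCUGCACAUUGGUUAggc
Mir199b, chr2:32318460-32318569, plus strand: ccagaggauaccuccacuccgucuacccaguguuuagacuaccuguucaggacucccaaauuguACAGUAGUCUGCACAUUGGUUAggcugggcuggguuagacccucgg
Mir126a, chr2:26591357-26591429, plus strand: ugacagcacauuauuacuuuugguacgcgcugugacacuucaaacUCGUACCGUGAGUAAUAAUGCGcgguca
The reads of miR-199a-3p could therefore come from any of these 3 miR-199 loci. By GENCODE M21, which is on GRCm38, each miR-199 gene lies on the opposite strand of a dynamin gene and overlaps no exon of it: Mir199a-2 of Dnm3, Mir199a-1 of Dnm2 and Mir199b of Dnm1. Mir214 starts 5444 bases after the end of Mir199a-2, and both overlap exons of Dnm3os. Mir126a lies inside Egfl7 on the same strand and overlaps 1 annotated exon of it.

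The deposited values were reads per miRNA divided by 1 size factor per library, and are called normalized counts here. Reads on the listed miRNAs totalled from 42091 in HS replicate 1, the shallowest library, to 121503 in control replicate 2. HS replicate 1 detected 228 of the 603 names and the other libraries 420 to 444. A count of 0 allows up to 3 reads, which is 7.25 normalized counts in HS replicate 1 and 1.99 to 2.51 in the others, and such limits cover counting error only. Among the miRNAs that mark myeloid cells such as microglia, miR-146a-5p had 1457, 2001, 533 and 2662 reads in control replicates 1 and 2 and HS replicates 1 and 2, but miR-223-3p had 5, 2, 3 and 0.

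The fitted log2 fold change was below 0 for all 8 distinct members, as for 65.4% of the 376 miRNAs tested, and HS replicate 1 held the lowest listed value in 7 of them. MiR-199a-3p went from 1299 ± 762 normalized counts in the control group to 244 ± 345 in the HS group (SD, n = 2). Summed over the members, 3958 and 2092 reads were counted for control replicates 1 and 2, against 9 for HS replicate 1 and 1400 for HS replicate 2. These were 4.10%, 1.72%, 0.0214% and 1.23% of the listed miRNA reads (95% Wilson intervals 3.98% to 4.23%, 1.65% to 1.80%, 0.0113% to 0.0406% and 1.17% to 1.29%). The mean share was 2.91% ± 1.68 in the control group and 0.625% ± 0.854 in the HS group (SD, n = 2). Both HS libraries were below both control libraries, but 2 libraries against 2 cannot give an exact two-sided permutation p below 0.333, which is the value obtained.

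**Figure D1:**
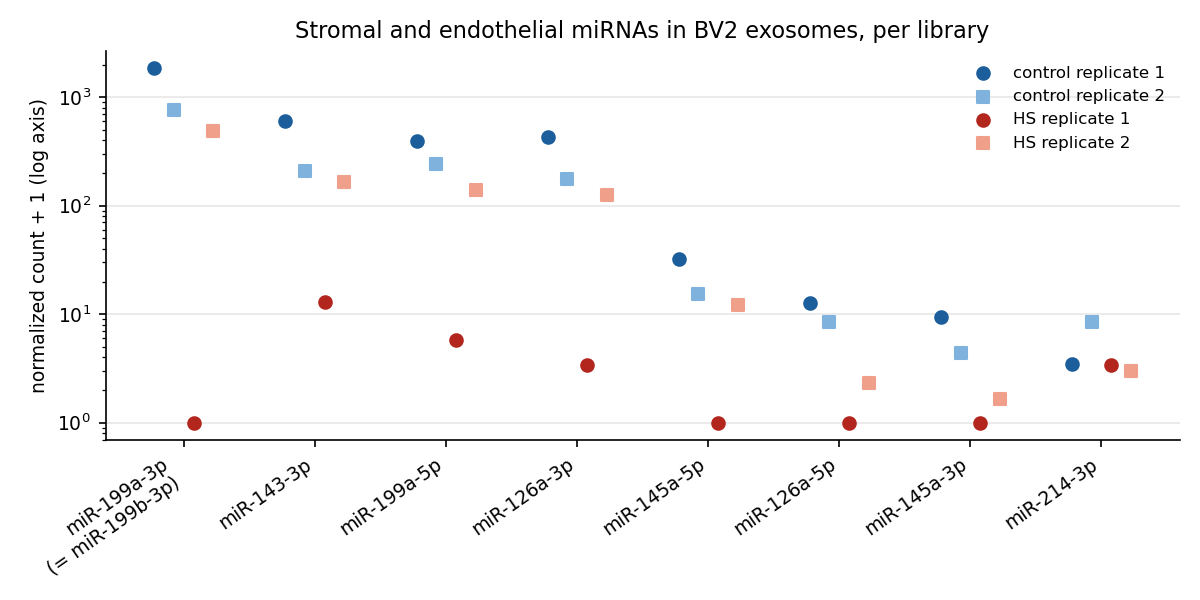
Normalized count plus 1 (log axis) of the 8 distinct members in each library, ordered by control mean, with circles for replicate 1 and squares for replicate 2 of the control (blue) and HS (red) groups. Control replicate 1 is highest in 7 of the 8 members, and HS replicate 1 lies far below HS replicate 2 in miR-199a-3p, miR-143-3p, miR-199a-5p and miR-126a-3p.

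MiR-199a-3p, which in other tissues is known to restrain mTOR and Met, was the most abundant member. Its reads numbered 2199 for control replicate 1, 1122 for control replicate 2, 0 for HS replicate 1 and 735 for HS replicate 2, which are 1838, 760, 0 and 488 normalized counts. By reads it was number 14, 33 and 36 in control replicate 1, control replicate 2 and HS replicate 2, while the limit of 3 reads allows a share of up to 0.00713% in HS replicate 1. Against that limit, HS replicate 1 was at least 179-fold below the control mean and at least 67.2-fold below HS replicate 2. The groups did not overlap. The mean was 5.33-fold lower in the HS group, or 2.66-fold without HS replicate 1, and limma on log2(normalized count + 1) put the log2 fold change at -5.74, with a standard error of 3.15 and an adjusted p of 0.617. This was the lowest log2 fold change of the 376 tested miRNAs, but it rests on the pseudocount in the library at 0, and without HS replicate 1 it was -1.28.

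MiR-199a-5p, the opposite arm, was read 466 and 356 times in the controls but 2 times in HS replicate 1, against 208 times in HS replicate 2, which are 390, 241, 4.84 and 138 normalized counts. HS replicate 2 was 28.5-fold above HS replicate 1 (95% counting interval 7.80 to 237). The group means, 315 ± 105 and 71.4 ± 94.2 (SD, n = 2), were 4.42-fold apart, or 2.29-fold without HS replicate 1. This gave a log2 fold change of -3.43, with a standard error of 1.73 (adjusted p = 0.617). MiR-199b-5p, the 5p arm of Mir199b and not a member, had 40, 33, 0 and 22 reads in the same order, so this paralogous arm was also missing from HS replicate 1 (log2 fold change -2.84, standard error 1.54).

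MiR-214-3p, known as a regulator of Ezh2, was nearly absent although its gene lies in the same host transcript as Mir199a-2. It was read 3 and 11 times in the controls and 1 and 3 times after HS, which is 2.51, 7.46, 2.42 and 1.99 normalized counts. The opposite arm, miR-214-5p, had 5, 3, 0 and 1 reads and fell short of the 10 reads required for testing. Levels of this order cannot be ranked between libraries, since 1 read was worth 0.836 normalized counts in control replicate 1 and 2.42 in HS replicate 1. The log2 fold change of miR-214-3p was -0.77 (standard error 0.83, adjusted p = 0.715), the smallest of the members, and was -0.13 without control replicate 2. Reads of miR-199a-3p per read of miR-214-3p numbered 733 in control replicate 1, 102 in control replicate 2 and 245 in HS replicate 2. These ratios rest on few reads of miR-214-3p, and reads of miR-199a-3p can also come from Mir199a-1 and Mir199b.

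MiR-143-3p, the main arm of the smooth muscle miRNA miR-143, was counted 714 and 305 times in the controls, with 5 reads left in HS replicate 1 and 246 in HS replicate 2, which are 597, 207, 12.1 and 163 normalized counts. It was the only member with more than 3 reads in HS replicate 1. HS replicate 2 was 13.5-fold above HS replicate 1 (95% counting interval 5.71 to 41.9), whereas control replicate 2 was 1.27-fold above HS replicate 2 (1.07 to 1.50). The group means, 402 ± 276 and 87.7 ± 107 (SD, n = 2), were 4.58-fold apart, or 2.46-fold without HS replicate 1, and the log2 fold change was fitted at -2.93 with a standard error of 1.52 (adjusted p = 0.617). Its opposite arm miR-143-5p was read 8 and 5 times in the controls and 0 and 3 times after HS.

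MiR-145a-5p, the dominant arm of miR-145a and a regulator of smooth muscle differentiation, was read 37 and 21 times in the controls and 0 and 17 times after HS, which is 30.9, 14.2, 0 and 11.3 normalized counts. The group means, 22.6 ± 11.8 and 5.64 ± 7.98 (SD, n = 2), were 2.00-fold apart without HS replicate 1, and with it the log2 fold change was fitted at -2.65 with a standard error of 1.47 (adjusted p = 0.617). HS replicate 1 would have been predicted to hold 4.66 reads from the level in HS replicate 2. Set to the limit of 3 reads it was 1.55-fold below HS replicate 2. With the 0 reads as counted, the 95% counting interval of HS replicate 2 over HS replicate 1 began at 1.13. MiR-145a-3p was read 10 and 5 times in the controls and 0 times and 1 time after HS, which is 8.36, 3.39, 0 and 0.664 normalized counts. The pooled ratio of control to HS reads per size factor was 10.8, with a 95% counting interval from 1.66 to 454.

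MiR-126a-3p, the endothelial arm known to target Spred1, was counted 515 and 261 times in the controls, with 1 read left in HS replicate 1 and 188 in HS replicate 2, which are 430, 177, 2.42 and 125 normalized counts. HS replicate 2 was 51.6-fold above HS replicate 1 (95% counting interval 9.15 to 2048). The group means, 304 ± 179 and 63.6 ± 86.5 (SD, n = 2), were 4.78-fold apart, or 2.43-fold without HS replicate 1, and the log2 fold change was fitted at -3.74 with a standard error of 1.96 (adjusted p = 0.617). MiR-126a-5p was read 14 and 11 times in the controls and 0 and 2 times after HS, which is 11.7, 7.46, 0 and 1.33 normalized counts. Its pooled ratio of control to HS reads per size factor was 8.99 (95% counting interval 2.24 to 78.3).

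**Figure D2:**
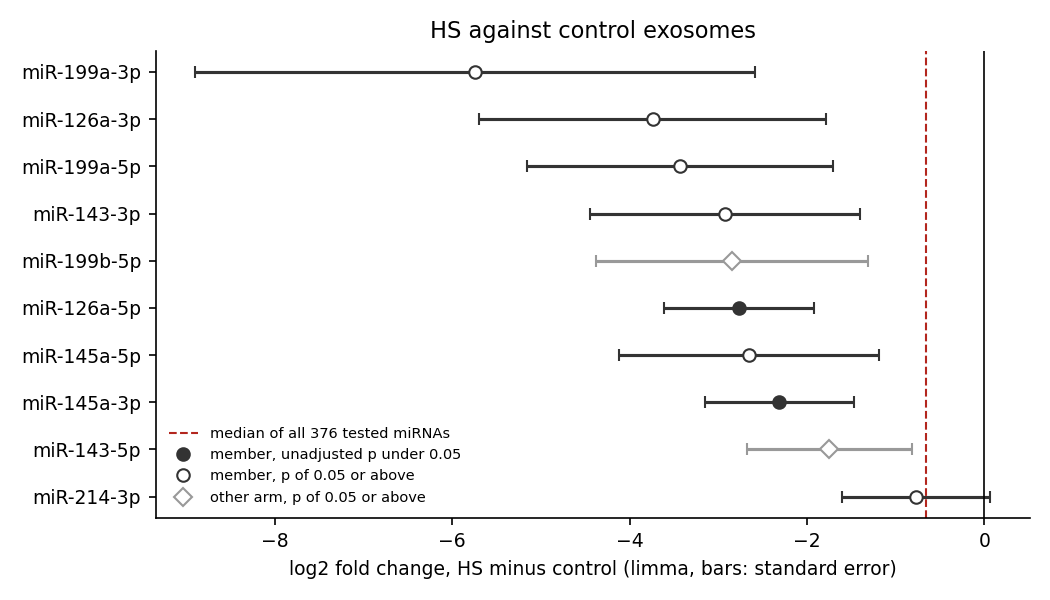
Log2 fold change (HS minus control, limma) with its standard error for the 8 distinct members (circles) and 2 tested opposite or paralogous arms (diamonds), filled where the unadjusted p was under 0.05. All lie below 0, from -5.74 for miR-199a-3p to -0.77 for miR-214-3p, and the dashed line is the median of all tested miRNAs, -0.65.

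The study called a miRNA altered where it differed over 2-fold with a p under 0.05. It does not say whether that p was adjusted, and the unadjusted p was used here. In limma 2 of the 8 members met this criterion. They were miR-126a-5p, with a log2 fold change of -2.76, a standard error of 0.85 and an adjusted p of 0.516, and miR-145a-3p, for which these were -2.31, 0.84 and 0.585. Both were among the least abundant members, with 27 and 16 reads over the 4 libraries, and reached the minimum of 10 reads through the control group. Of all 376 tested miRNAs, 6.65% met the criterion with lower values in the HS group, 1.6% with higher values and 8.24% in either direction (25 lower and 6 higher). The split depended on the fit, with 21 lower and 9 higher with TMM scaling, 11 and 10 in edgeR, 15 and 14 in DESeq2 and 18 and 16 without HS replicate 1. After Benjamini-Hochberg adjustment 0 of the 376 passed 0.05 in limma, edgeR's quasi-likelihood test or DESeq2, while 31, 21 and 29 had an unadjusted p under 0.05. Of the members, 0 met the criterion without control replicate 1 or without control replicate 2, and miR-126a-5p alone met it without HS replicate 1. Without HS replicate 2 it was met by 6 members, all but miR-214-3p and miR-145a-3p, against 30.1% of all tested miRNAs. In that fit the lone HS library is assumed to vary like the control libraries. On the log2 scale, the groups differed in the 4 most abundant members by less than the 2 HS replicates did.

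The median log2 fold change of the 8 members was -2.85, against -0.65 for all tested miRNAs. It was -1.14 without HS replicate 1 and -4.61 without HS replicate 2, where the medians of all tested miRNAs were -0.17 and -1.38. Both HS libraries lay below both control libraries in 8 of 8 members and in 32.4% of the tested miRNAs. For miR-214-3p this separation amounted to 2.51 against 2.42 normalized counts. For miR-145a-3p the limit of 7.25 in HS replicate 1 lies above the 3.39 of control replicate 2. In miR-145a-5p the ratio of control replicate 2 to HS replicate 2 was 1.26, with a counting interval from 0.634 to 2.55. In miR-126a-5p control replicate 2 had 7.46 normalized counts, from 11 reads, barely above the limit of 7.25 in HS replicate 1. The separation of these members is thus not shown beyond counting error.

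The members also differed within the control group. Control replicate 1 exceeded control replicate 2 in 7 of the 8, miR-214-3p being the exception, against 47.1% of the tested miRNAs. For the 4 most abundant members this ratio was 2.42 for miR-199a-3p, 2.89 for miR-143-3p, 1.61 for miR-199a-5p and 2.43 for miR-126a-3p. The ratio of control replicate 2 to HS replicate 2 was 1.56, 1.27, 1.75 and 1.42 in the same order, and so was smaller than the ratio within the control group in all but miR-199a-5p. The order control replicate 1, control replicate 2, HS replicate 2, HS replicate 1 from high to low, which was noticed in these data, held for the listed values in 7 of the 8 members and in 14.4% of the tested miRNAs. Its last step cannot be read in miR-145a-3p and miR-126a-5p, where 1 and 2 reads stood against 0. The step from control replicate 2 to HS replicate 2 had intervals that included 1 in miR-145a-5p (0.634 to 2.55) and miR-145a-3p (0.572 to 242).

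Proportions among the abundant members were compared within the 3 libraries other than HS replicate 1. There were 4.27, 4.30 and 3.91 reads of miR-199a-3p for each read of miR-126a-3p in control replicate 1, control replicate 2 and HS replicate 2. Per read of miR-143-3p there were 3.08, 3.68 and 2.99 reads of miR-199a-3p. Reads of miR-199a-5p per read of miR-126a-3p varied more, at 0.905, 1.36 and 1.11. HS replicate 1 had 0 reads of miR-199a-3p, 5 of miR-143-3p and 1 of miR-126a-3p. There miR-199a-3p was below miR-143-3p, the reverse of the other libraries, but the reads were too few to size the ratio.

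The balance of the arms was read within each library, where scaling cancels but few reads still limit a ratio. The 3p arm of miR-199a had 4.72 and 3.15 times the reads of the 5p arm in the control libraries and 3.53 times in HS replicate 2. These 3p reads are shared with miR-199b, so the ratio is not the balance of miR-199a alone. In miR-126a the 3p arm had 36.8 and 23.7 times the reads of the 5p arm in the control libraries and 94.0 times in HS replicate 2, where the 5p arm had 2 reads. MiR-145a was the reverse, with 0.270 and 0.238 reads of the 3p arm for each of the 5p arm in the control libraries and 0.0588 in HS replicate 2. The 3p arm of miR-143 had 89.2, 61.0 and 82.0 times the reads of the 5p arm in the same libraries. Over all 4 libraries, the log2 ratio of 3p to 5p reads (1 added to each) differed between HS and control by -1.83 for miR-199a, -1.29 for miR-126a, 0.25 for miR-145a and -1.73 for miR-143. In HS replicate 1 the 3p and 5p reads were 0 and 2, 1 and 0, 0 and 0, and 5 and 0 in the same order. The ratios there thus rest on the added 1, and HS replicate 2 had 1.82 for miR-199a against a control mean of 1.94. The exact two-sided permutation p was 0.667 for miR-199a and miR-143 and 1 for miR-126a and miR-145a. With miR-214 and miR-199b, 6 precursors were compared in this way. For miR-199b the exact two-sided permutation p was 0.333, the smallest that 2 libraries against 2 can give. Its ratio uses the same 3p reads as that of miR-199a, so these are not separate comparisons. MiR-199b had 0 reads of both arms in HS replicate 1, where its log2 ratio was thus 0 by construction.

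HS replicate 2 lay above HS replicate 1 in 7 of the 8 members, miR-214-3p being the exception, and in 59.3% of the 376 tested miRNAs. In miR-145a-3p and miR-126a-5p this rested on 1 and 2 reads against 0, within the limit of a count of 0. At the level of HS replicate 2, the size factors predicted 202 reads of miR-199a-3p, 57.1 of miR-199a-5p, 67.5 of miR-143-3p and 51.6 of miR-126a-3p in HS replicate 1, where 0, 2, 5 and 1 were counted. With counts at or under 3 reads set to the limit of 3 reads, HS replicate 1 was more than 4-fold below the control mean in these 4 members and in 24.2% of the 157 names with at least 100 reads in all. HS replicate 2 was so in 0 of the 4 and in 5.1% of the names. From the lowest ratio of HS replicate 1 to the control mean, miR-199a-3p was number 1, shared with miR-199b-3p, and miR-199a-5p, miR-126a-3p and miR-143-3p were numbers 3, 4 and 5 of the 157. In this ranking miR-199a-3p, miR-199a-5p and miR-126a-3p were all set to the limit, so their order only restates that of their control means. A name at the limit counted as more than 4-fold lower only where its control mean was more than 4-fold above that limit.

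**Figure D3:**
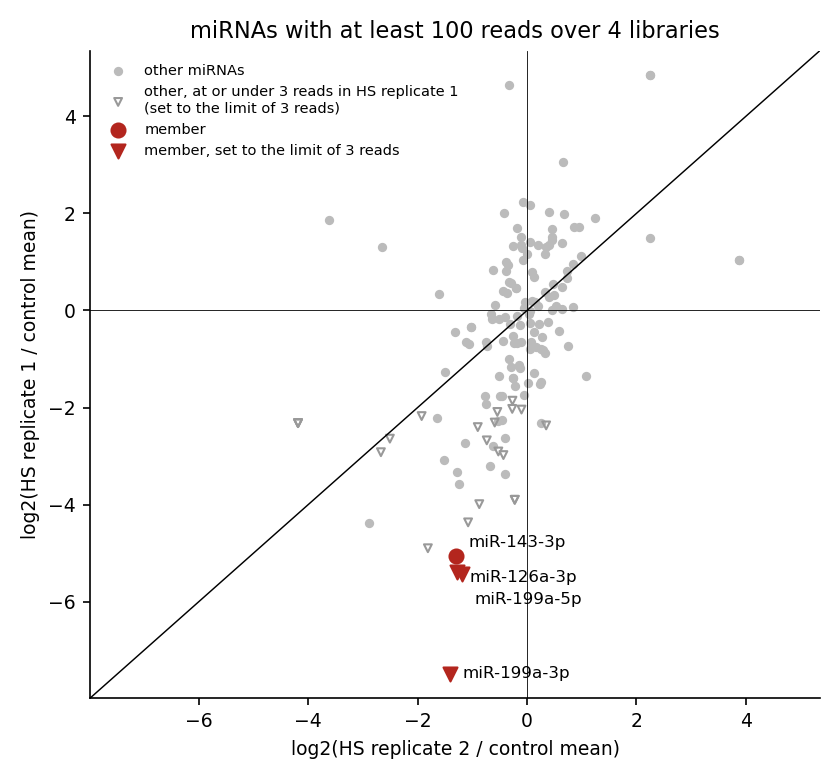
Log2 ratio to the control mean in HS replicate 2 (x axis) and HS replicate 1 (y axis) for the miRNAs with at least 100 reads over the 4 libraries, with the 4 members in red and triangles where HS replicate 1 was set to the limit of 3 reads. The 4 members lie lowest on the y axis, at -7.48, -5.44, -5.39 and -5.05, and far below the diagonal of equal ratios. MiR-199a-3p, miR-199a-5p and miR-126a-3p stand at the limit, so their heights restate their control means.

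Base composition moved with the ratios of both HS libraries to the control mean. MiR-199a-3p has 40.9% G and C, miR-126a-3p 45.5%, miR-199a-5p 52.2% and miR-214-3p 59.1%. Of the 157 names, 131 (83.4%) had a RefSeq mature sequence. Leaving out the members and their opposite arms, HS replicate 1 was more than 4-fold below the control mean in 21 of 64 names (32.8%) under 50% G and C and in 5 of 63 (7.94%) at or above it. Across the 131 names, which share these libraries, Spearman's rho between G and C content and the log2 ratio to the control mean was 0.44 for HS replicate 1 and 0.45 for HS replicate 2. It was 0.26 for the ratio of HS replicate 1 to HS replicate 2 and -0.24 for that of control replicate 1 to control replicate 2. The part of base composition in the members' values was not tested.

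Other lists of miRNAs, each named for cell types in which its miRNAs are known, were measured beside the members. The name of a list does not mean that other cell types lack its miRNAs. Of 19 other stromal and vascular miRNAs, 16 were tested and 0 met the criterion, while 12 had a log2 fold change below 0 and 4 had both HS libraries below both control libraries. Their median log2 fold change was -1.39 (range -3.40 to 0.27), and their share of the reads was 9.05% and 7.83% in the controls against 5.66% and 8.85% after HS. MiR-99a-5p and miR-222-3p, the most abundant of them, had log2 fold changes of 0.02 and 0.18. In HS replicate 1, which detected 228 of all 603 names, 10 of the 19 had 0 reads.

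Epithelial miRNAs held 0.532% and 0.334% of the reads in the controls and 0.0618% and 0.256% after HS, and 8 of the 10 were at 0 in HS replicate 1. Muscle miRNAs held 0.0311%, 0.0132%, 0% and 0.0219% in the same order, and all 3 that were listed were at 0 in HS replicate 1. Myeloid miRNAs held 7.32%, 3.46%, 2.07% and 4.30%, or 2.49%, 2.53%, 1.80% and 3.22% without miR-21a-5p, which many cell types express, and 2 of the 8 were at 0 in HS replicate 1. Red cell and liver miRNAs held 0.0953%, 0.234%, 0.325% and 0.247%, with 1 of the 4 at 0 in HS replicate 1. Over the 4 libraries most of these reads were of miR-122-5p, the liver miRNA, with 27, 175, 96 and 206 reads, while miR-451a of red cells had a log2 fold change of 0.01. Of the members, 4 of 8 were at 0 in HS replicate 1. That library detected 228 of all 603 names, so most names were at 0 there. In none of these 4 lists did a miRNA meet the criterion in limma, with 2 muscle, 9 epithelial, 8 myeloid and 3 red cell and liver miRNAs tested. Fewer vesicles from a given source and less of a miRNA per vesicle cannot be told apart in such libraries, and the part of other cell types in the members' values was not tested.

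**Figure D4:**
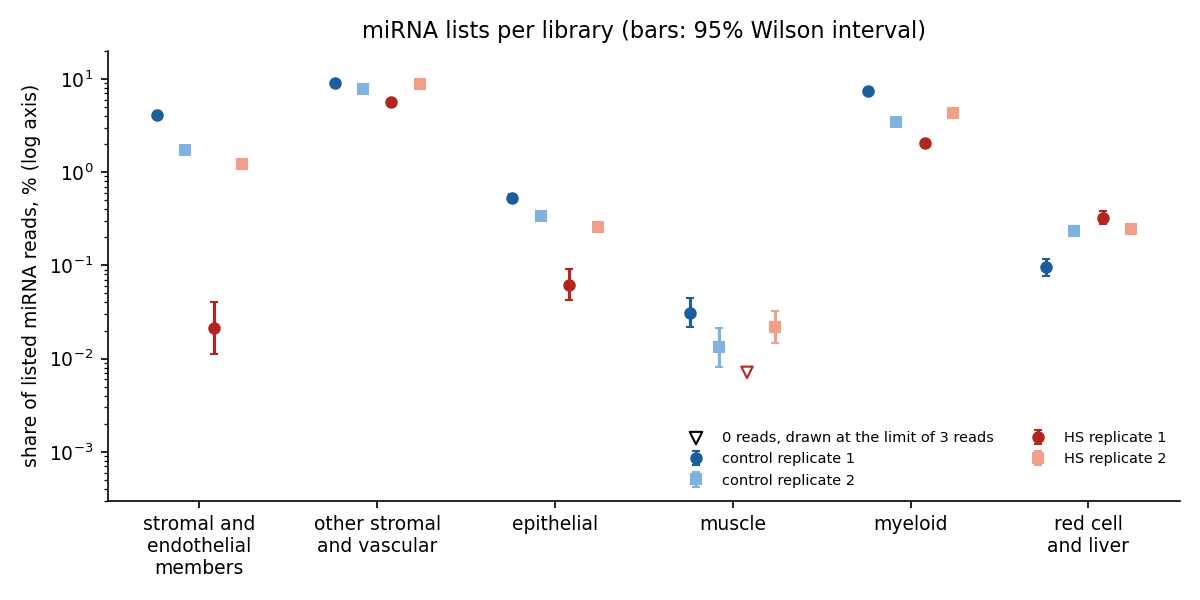
Share of the listed miRNA reads (%, log axis) held by the members and 5 other lists in each library, with 95% Wilson intervals that cover counting error only and an open triangle at the limit of 3 reads where a list had none. The members range from 0.0214% in HS replicate 1 to 4.10% in control replicate 1, and the myeloid list from 2.07% to 7.32%. On the log axis, which shows ratios, the members span more, whereas in percentage points the myeloid list does.

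The miRNAs whose pattern over the 4 libraries was most like that of miR-199a-3p were sought among 145 distinct sets of at least 100 reads outside the members and their opposite arms. Likeness was the root mean square difference, over the 4 libraries, of log2(normalized count + 1) after each miRNA was centred on its own mean. The closest was miR-200c-3p, an epithelial miRNA, with a difference of 1.29 and 214, 178, 0 and 107 reads in control replicates 1 and 2 and HS replicates 1 and 2. It was followed by miR-127-3p (1.50), miR-669a-5p, which shared its reads with miR-669p-5p (1.53), miR-381-3p (2.02) and miR-1839-5p (2.09). MiR-127-3p and miR-381-3p belong to the imprinted Dlk1-Dio3 cluster, and miR-669a-5p to the Sfmbt2 cluster. All 5 had 0 reads in HS replicate 1, where miR-199a-3p lies farthest from its own mean, so the measure favours such names. Only miR-200c-3p had the order of miR-199a-3p over the libraries. In miR-127-3p, miR-669a-5p, miR-381-3p and miR-1839-5p, control replicate 2 lay above control replicate 1. MiR-1839-5p had 34.3 and 40.7 normalized counts in the controls and was highest in HS replicate 2, with 47.8. The median difference of the 145 was 4.26, and among the members it was 1.66 for miR-126a-3p, 1.94 for miR-199a-5p, 2.34 for miR-143-3p and 4.17 for miR-214-3p.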

How the data were processed

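Exosomal small RNA of 4 libraries was analysed. According to the study's methods, the authors removed adapters, low-quality reads and reads shorter than 17 nt and mapped the rest with bowtie; versions and genome build are not given in the sources used here. The signal values deposited by the authors carry the heading RPKM. Dividing each by the smallest value above 0 of its library gave whole reads in 100% of cases (within 0.001 reads), and the divisors were the inverse of size factors of 1.20 and 1.48 (control) and 0.414 and 1.51 (HS), as DESeq2 computes them.

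MiRNAs with at least 10 reads in all were tested with limma 3.58.1 in R 4.3.3 on log2(value + 1), a scale that understates changes of low counts, with Benjamini-Hochberg adjustment. Alternatives were edgeR 4.0.16, DESeq2 1.42.0, other scalings, pseudocounts and filters, a replicate block and leaving out each library. The fits were tested on simulated data. Counting intervals are exact conditional binomial. Named were the members, their opposite arms, the 5 most similar miRNAs, some of the most abundant of the other lists and, outside this rule and after its values were seen, the myeloid marker miR-223-3p. Members and lists were chosen with earlier results of these data known. Tables were made with Python 3.11.15.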

Additional observations from a re-analysis of the deposited data

How the results depend on the processing

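All 8 members kept a negative log2 fold change under each of the 13 alternatives, but the count of 2 members that met the study's criterion did not hold under most of them. It was 0 with edgeR's quasi-likelihood test, DESeq2, limma with a trend, a pseudocount of 5 or the replicate block, 1 with TMM or total-read scaling, and 2 with a pseudocount of 0.5 or no filter. Leaving out 1 library gave 0 to 6 members and 26 to 113 of all tested miRNAs. Of all tested miRNAs, 16 met the criterion with a pseudocount of 5 and 19 with the replicate block, against 31; without a filter 42 of 603 did. Same-numbered libraries did not deviate together (correlation of their deviations, -0.097 over 376 miRNAs). With 1 difference per group this cannot show whether they were prepared as pairs, which the labels do not say. With total-read scaling, a setting chosen after the data were seen, both HS libraries lay below both control libraries in 8 members and in 28.5% of all tested miRNAs. Leaving out a library cannot undo such a separation. In HS replicate 1, 0 reads allow up to 7.25 normalized counts, more than the control mean of miR-145a-3p (5.87), so a lower level of it there was not detectable at this depth.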
